A study of Mus musculus with 12 samples.

Results

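The 10 genes described here encode the liver's fatty acid desaturases and elongases: Scd1, Scd2, Fads1, Fads2, Fads3, Elovl1, Elovl2, Elovl3, Elovl5 and Elovl6. Members were all probe sets that the array's annotation assigns to 1 of these symbols and to no other gene. That rule gave 19 of 22626 probe sets, and 10 of 12393 genes. A probe set is a group of short oligonucleotides that together read 1 transcript. Scd2 and Elovl1 had 3 probe sets each, Scd1, Fads2, Fads3, Elovl5 and Elovl6 had 2 each, and Fads1, Elovl2 and Elovl3 had 1 each. The rule used no measured value.

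RNA of whole livers from female C57BL/6 mice aged 8 to 12 weeks was hybridised to 12 Affymetrix Mouse430A arrays, 3 for each of 4 groups. The high-fat group was wild type on a diet with 60% of its calories from fat, given after weaning. The HDAC9 knockout and HDAC6 knockout groups lacked a histone deacetylase, and the labels name no diet for either of them. The chow group was wild type on regular chow with 25% of its calories from fat. The labels do not say whether the deletions act in every tissue, and they number the samples of a group without saying that each came from its own mouse. The p-values therefore measure the spread between these samples, which may be technical.

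Desaturases insert a double bond into a fatty acid that is bound to coenzyme A or to another lipid, and elongases of the endoplasmic reticulum catalyse the first step of a cycle that adds a pair of carbons. In liver, Elovl6 and Scd1 turn newly made palmitate into stearate and oleate for storage and export, while Fads2, Elovl5, Fads1 and Elovl2 turn the essential dietary fatty acids into arachidonic acid and docosahexaenoic acid. Genes of both routes are known targets of the sterol regulatory element-binding proteins and of nuclear receptors that sense fatty acids and sterols.

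Values are log2 expression per probe set as deposited, so a difference of 1 means a doubling. Array medians lay between 5.78 and 5.86, and differences between groups had a standard error (SE) of 0.13 at the median. The labels were checked on Hdac6 first, whose probe set read 6.17, 6.16 and 6.50 in HDAC6 knockout livers, against 7.89, 7.98 and 7.86 in chow livers (a difference of -1.63, adjusted p = 0.000188, limma). The Hdac9 probe set read 4.04 to 4.53 on all 12 arrays, within the range of 36 probe sets of genes that liver does not express (median 3.36, highest mean 6.93), so it does not check the label. The same range covers 6 member probe sets by their mean over the 12 arrays, all 3 of Scd2, both of Fads3 and that of Elovl3, whose values are therefore given as readings near or within background. Of these, Elovl3 lay near the top of the range and above every array median, with a mean of 6.64 and values from 5.17 to 7.91. Albumin read 14.16 to 14.25 on every array. A pair of arrays stood apart. On HDAC9 knockout replicate 2, the mean of 13 exocrine pancreas genes was 8.18, against 4.19 to 4.95 elsewhere. The mean of 10 fat cell genes was 5.14 there, against 4.54 to 4.86 elsewhere. The fat cell hormone Adipoq read 4.96, against at most 3.05 elsewhere. Not every fat cell gene stood out, as Lep read 2.67 there and up to 2.86 elsewhere. On chow replicate 2, 243 probe sets lay more than 0.7 from their group mean, 215 of them below it, against 15 to 128 on the other arrays. Member results that rest on either array are in most cases given without it too, and the pathway lists use all arrays. In whole liver, fewer cells of a type and less RNA per cell cannot be told apart.

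In high-fat livers, Fads2 was the member that rose. Its probe set 1449325_at was 1.92-fold above chow and 1.79-fold above the HDAC9 knockouts, and both differences passed the threshold, an adjusted p under 0.05. The other 18 member probe sets passed it in none of the 6 comparisons between groups. Among them, Fads1, Elovl2 and Elovl5, which work on the same polyunsaturated route, had higher means in high-fat than in chow livers. Both probe sets of Scd1 and of Elovl6, from the saturated and monounsaturated route, had their highest group mean in HDAC6 knockouts, with wide spread between arrays in other groups for Scd1 and in all groups for Elovl6.

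Fads2 inserts the first double bond of the route from linoleic and alpha-linolenic acid. The gene lies at chr19:10062765-10101503 in the GRCm38.p6 assembly, between Fads3 (chr19:10040855-10060113) and Fads1 (chr19:10182877-10196874). The annotation of the array gives no position for a probe set, so exons and untranslated regions cannot be named. Promoter windows from RefSeq, 250 bases before to 50 bases after a transcription start, were matched by symbol for 6 of the 10 members, with 8 windows in all. No entry was matched for Scd1, Scd2, Fads1 and Elovl3. The windows of Fads2, Elovl2 and Elovl5, the matched genes of the polyunsaturated route, are printed 5′ to 3′ on the gene's strand, because the differences in high-fat livers described next concern them. Capitals mark matches to 3 motifs searched on both strands: GGGCGG (the core of a GC box), CCAAT (which reads ATTGG when it lies on the opposite strand) and CACGTG (an E-box, the same on both strands).
Fads2, chr19:10101454-10101753, minus strand: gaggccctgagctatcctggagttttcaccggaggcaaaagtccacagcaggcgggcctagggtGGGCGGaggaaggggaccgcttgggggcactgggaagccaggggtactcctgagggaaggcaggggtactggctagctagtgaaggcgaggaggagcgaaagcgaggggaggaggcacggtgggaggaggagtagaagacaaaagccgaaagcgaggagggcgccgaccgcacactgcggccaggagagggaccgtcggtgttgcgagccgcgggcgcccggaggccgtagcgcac
Elovl2, chr13:41220354-41220653, minus strand: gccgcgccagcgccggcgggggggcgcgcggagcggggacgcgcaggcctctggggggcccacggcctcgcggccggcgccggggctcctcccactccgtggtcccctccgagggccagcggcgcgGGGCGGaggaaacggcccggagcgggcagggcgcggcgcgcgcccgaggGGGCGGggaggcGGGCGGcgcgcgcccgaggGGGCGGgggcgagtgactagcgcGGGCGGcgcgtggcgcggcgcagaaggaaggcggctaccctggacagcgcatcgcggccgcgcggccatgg
Elovl5, chr9:77917115-77917414, plus strand: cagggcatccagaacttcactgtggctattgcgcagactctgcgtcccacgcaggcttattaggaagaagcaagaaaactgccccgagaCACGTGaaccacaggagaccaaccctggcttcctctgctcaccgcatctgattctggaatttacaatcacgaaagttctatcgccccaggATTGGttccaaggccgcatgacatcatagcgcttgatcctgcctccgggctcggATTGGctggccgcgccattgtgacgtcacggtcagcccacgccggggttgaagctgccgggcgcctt

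The Fads2 window held GGGCGG 1 time, with its first base at -186 relative to the start, and neither of the other motifs. The Elovl2 window is that of the outer of the gene's 2 RefSeq starts and held GGGCGG 5 times, while the window of the inner start held 0 matches to any of the 3. The Elovl5 window held CCAAT 2 times, with first bases at -71 and -17, and CACGTG 1 time. No match overlapped another in these windows. Of 32851 mouse promoter windows of the same length, 35.7% held GGGCGG, 37.4% held CCAAT and 7.15% held CACGTG, so the first pair of motifs is common. The matches describe letters only.

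Probe set 1449325_at of Fads2 read 9.60, 10.02 and 10.02 in high-fat livers, 9.19, 9.01 and 8.91 in HDAC9 knockout livers, 9.05, 9.17 and 9.31 in HDAC6 knockout livers and 8.90, 8.78 and 9.12 in chow livers. All 3 high-fat arrays lay above all 9 others, and the remaining groups overlapped one another. The means were 9.88 ± 0.24 in high-fat, 9.04 ± 0.15 in HDAC9 knockout, 9.18 ± 0.13 in HDAC6 knockout and 8.93 ± 0.17 in chow livers (SD, n = 3 each). High-fat exceeded chow by 0.94 (SE 0.13, 95% interval 0.66 to 1.23), with an adjusted p of 0.00872 in limma, and this was the 15th smallest p of 22626 probe sets. High-fat exceeded HDAC9 knockout by 0.84 (95% interval 0.56 to 1.13, adjusted p = 0.0204, limma). Against HDAC6 knockout the difference was 0.70 (95% interval 0.42 to 0.99) and missed the threshold (adjusted p = 0.0738, limma). On this probe set neither knockout differed detectably from chow, with 0.10 for HDAC9 (95% interval -0.19 to 0.39) and 0.24 for HDAC6 (95% interval -0.04 to 0.53). Higher levels by up to 0.39 or 0.53 remain inside these intervals.

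The second Fads2 probe set, 1419031_at, read 10.98, 11.23 and 11.22 in high-fat livers, 10.53, 10.19 and 10.52 in HDAC9 knockout livers, 10.27, 10.32 and 10.39 in HDAC6 knockout livers and 10.31, 9.07 and 10.27 in chow livers. High-fat was again above every other array. Within chow, replicate 2 lay more than 1 unit under its neighbours, which raised the pooled within-group SD of this probe set to 0.37, against 0.18 for 1449325_at. With all arrays, high-fat exceeded chow by 1.26 (2.40-fold, SE 0.24, 95% interval 0.74 to 1.78) without passing the threshold (adjusted p = 0.0612, limma). Without chow replicate 2 the difference was 0.86 and passed (adjusted p = 0.00990), and high-fat then also passed against HDAC9 knockout (0.73, adjusted p = 0.0120) and HDAC6 knockout (0.82, adjusted p = 0.00430, limma for each). On this probe set, HDAC9 knockout minus chow was 0.53 (95% interval 0.01 to 1.05, adjusted p = 0.865) and HDAC6 knockout minus chow 0.45 (95% interval -0.07 to 0.96, adjusted p = 0.853, limma), and they were 0.13 and 0.04 without chow replicate 2. Without chow replicate 1 or chow replicate 3, the chow difference was 1.48 or 1.46 and passed as well (adjusted p = 0.0452 and 0.0380). Removing chow replicate 2 left 1449325_at past the threshold against chow (0.87, adjusted p = 0.0319) and HDAC9 knockout (adjusted p = 0.0159).

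The Fads2 calls depended on single arrays, and a removal also leaves 1 group with 2 arrays. Without high-fat replicate 2 the difference from chow on 1449325_at was 0.87 (adjusted p = 0.0624), and without high-fat replicate 3 it was 0.88 (adjusted p = 0.0528). Against HDAC9 knockout the call was lost without high-fat replicate 2 (0.77, adjusted p = 0.101), high-fat replicate 3 (0.77, adjusted p = 0.121), HDAC9 knockout replicate 2 (0.83, adjusted p = 0.0741) or HDAC9 knockout replicate 3 (0.78, adjusted p = 0.0859). Against HDAC6 knockout it was gained without high-fat replicate 1 (0.84, adjusted p = 0.0248). The direction was the same each time.

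**Figure D1:**
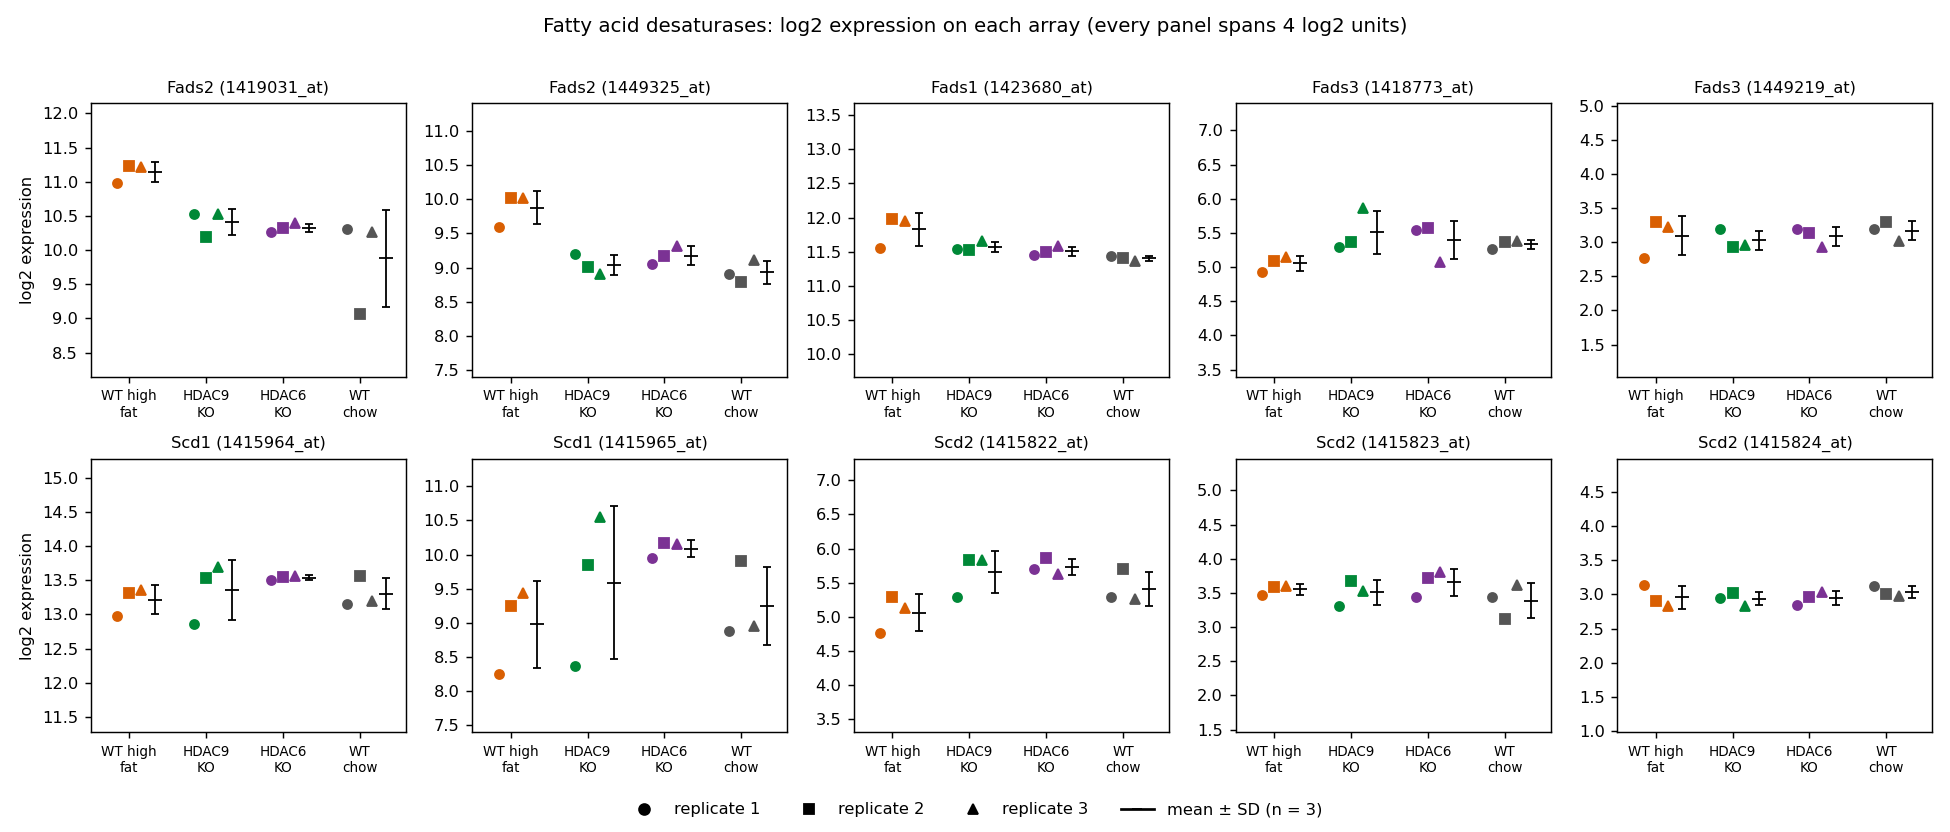
Log2 expression (y axis) of each desaturase probe set on each array, by group (x axis), with replicates as circles, squares and triangles and the mean ± SD of 3 arrays beside them. Fads2 is higher on all 3 high-fat arrays than on the 9 others on both probe sets, and Scd1 spreads widely within HDAC9 knockout, high-fat and chow livers.

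Other measures differed between high-fat and chow livers too. A clock score, the mean of 6 output genes of the daily clock (Per3, Dbp, Nr1d1, Nr1d2, Hlf and Tef) minus the mean of 5 that peak opposite to them (Arntl, Npas2, Clock, Nfil3 and Cry1), was 1.76, 1.63 and 2.79 in high-fat livers, -0.52, 0.83 and -1.23 in HDAC9 knockout livers, -0.72, -0.04 and 1.60 in HDAC6 knockout livers and -0.68, 1.44 and -0.07 in chow livers. With this score as a covariate, Fads2 1449325_at exceeded chow by 0.88 (adjusted p = 0.112) and HDAC9 knockout by 0.76 (adjusted p = 0.253, limma), and neither passed. The SE of the chow difference was 0.17, against 0.13 without the covariate. Every high-fat score lay above every score of the other groups, though the lowest, 1.63, was close to the 1.60 of HDAC6 knockout replicate 3. The score also varied within each group, so the fit could estimate score and group together, with the larger SE given. Of 16 probe sets of Kupffer cell and macrophage markers, 15 had higher means in high-fat than in chow livers, 0 passed and 8 had an unadjusted p under 0.05 (limma), as 8.16% of all probe sets did. The knockouts shared this shift from chow, with 16 of 16 higher in HDAC9 and 12 of 16 in HDAC6 knockout livers. There 7 and 5 had an unadjusted p under 0.05 (limma), as 5.76% and 5.96% of all probe sets did. The median difference from chow was 0.34 in high-fat, 0.24 in HDAC9 knockout and 0.22 in HDAC6 knockout livers. The per-array mean over 12 of the 13 listed macrophage genes ran from 9.08 to 9.33 in high-fat, 8.94 to 9.25 in HDAC9 knockout, 9.02 to 9.18 in HDAC6 knockout and 8.63 to 9.03 in chow livers. The corresponding mean of 9 hepatocyte genes ran from 12.95 to 13.09 in high-fat and from 12.97 to 13.09 in chow livers. Beyond the fit with the clock score, the part of the clock genes in the Fads2 difference was not tested. The part of macrophage RNA was not tested.

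Fads1 carries out the last desaturation on the way to arachidonic and eicosapentaenoic acid. Its probe set read 11.55, 11.97 and 11.95 in high-fat livers, 11.54, 11.53 and 11.66 in HDAC9 knockout livers, 11.45, 11.49 and 11.58 in HDAC6 knockout livers and 11.44, 11.41 and 11.37 in chow livers. Chow was lowest, and each of the other groups lay above it without overlap, while high-fat replicate 1 fell among the knockout arrays. High-fat exceeded chow by 0.42 (SE 0.10, 95% interval 0.20 to 0.64) without passing (adjusted p = 0.198, limma). Without high-fat replicate 1 the difference was 0.56 and passed (adjusted p = 0.0111), as did the difference of 0.46 from HDAC6 knockout (adjusted p = 0.0383). HDAC9 knockout exceeded chow by 0.17 (95% interval -0.05 to 0.39) and HDAC6 knockout by 0.10 (95% interval -0.12 to 0.32).

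Elovl5 lengthens the products of Fads2, and Elovl2 lengthens the longer polyunsaturated acids that precede docosahexaenoic acid. Elovl2 read 11.48, 11.51 and 11.48 in high-fat livers, 10.97, 11.27 and 11.10 in HDAC9 knockout livers, 10.99, 10.77 and 10.93 in HDAC6 knockout livers and 11.06, 11.44 and 11.04 in chow livers. The high-fat arrays sat close together (SD 0.022) and above the other 9, and HDAC6 knockout lay below chow without overlap. High-fat exceeded HDAC6 knockout by 0.59 (1.51-fold, 95% interval 0.35 to 0.83, adjusted p = 0.0738, limma), and this passed without chow replicate 2, which enters the shared estimate of spread (adjusted p = 0.0167). The differences of 0.37 from HDAC9 knockout (adjusted p = 0.350) and 0.31 from chow (adjusted p = 0.488) did not pass, nor did HDAC6 knockout minus chow at -0.29 (95% interval -0.53 to -0.04, adjusted p = 0.807, limma). Without chow replicate 2 the last of these was -0.15.

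Elovl5 varied little, with pooled within-group SDs of 0.099 on both probe sets, against a median of 0.15 over all probe sets. On 1437211_x_at it read 12.77, 12.95 and 12.89 in high-fat livers, 12.64, 12.64 and 12.85 in HDAC9 knockout livers, 12.86, 12.88 and 12.81 in HDAC6 knockout livers and 12.42, 12.66 and 12.53 in chow livers. High-fat and HDAC6 knockout both lay above chow without overlap, and HDAC9 knockout overlapped it. The difference from chow was 0.33 in high-fat (95% interval 0.15 to 0.52, adjusted p = 0.234) and 0.31 in HDAC6 knockout livers (95% interval 0.13 to 0.50, adjusted p = 0.714, limma). Both comparisons use the same chow arrays. Probe set 1415840_at gave 0.23 in high-fat (adjusted p = 0.488) and 0.23 in HDAC6 knockout livers (adjusted p = 0.780). High-fat minus HDAC6 knockout was 0.02 on 1437211_x_at, with a 95% interval of -0.16 to 0.21.

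**Figure D2:**
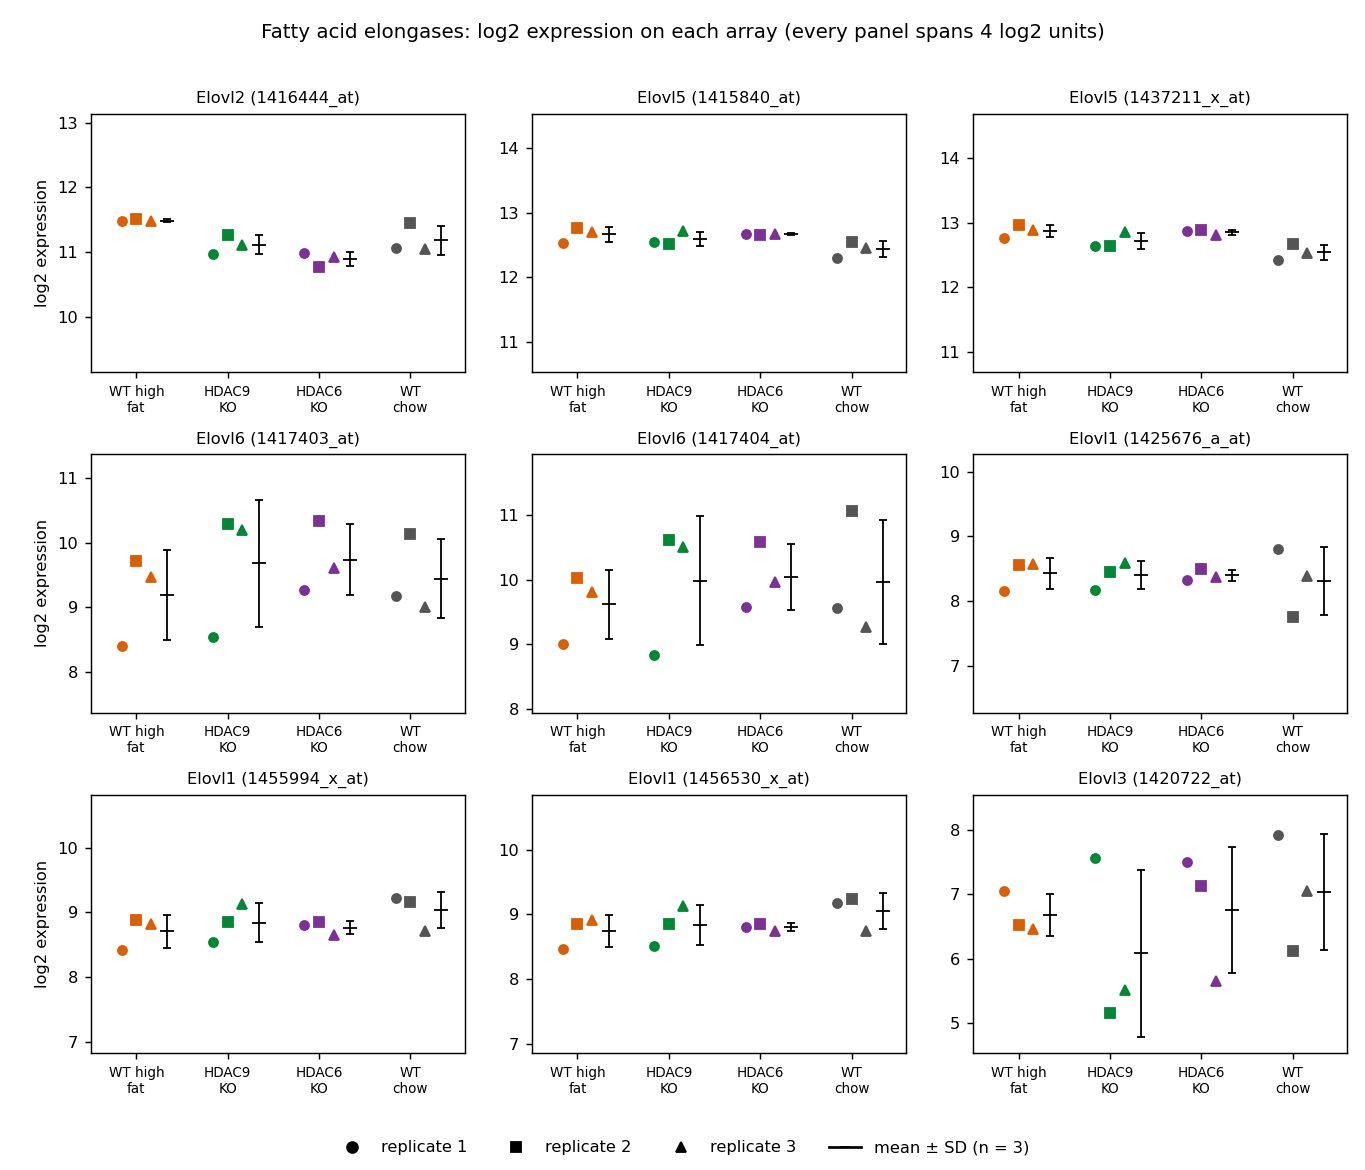
Log2 expression (y axis) of each elongase probe set on each array, by group (x axis), with replicates as circles, squares and triangles and the mean ± SD of 3 arrays beside them. Elovl2 lies highest on the 3 high-fat arrays and Elovl5 lowest on average in chow, while Elovl6 and Elovl3 spread over more than 1 log2 unit within a group.

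Scd1, the main hepatic stearoyl-coenzyme A desaturase, makes oleate and palmitoleate. Its gene and that of Scd2, the isoform prominent in brain, are neighbours on the same chromosome as the Fads genes (chr19:44394450-44407709 and chr19:44293676-44306864). Scd1 probe set 1415965_at read 8.25, 9.25 and 9.43 in high-fat livers, 8.37, 9.85 and 10.56 in HDAC9 knockout livers, 9.95, 10.17 and 10.15 in HDAC6 knockout livers and 8.89, 9.91 and 8.95 in chow livers. The HDAC6 knockout arrays kept close together and lay above every high-fat and chow array, and the HDAC9 knockout arrays spanned more than 2 units. HDAC6 knockout minus chow was 0.84 (SE 0.44, 95% interval -0.11 to 1.79, adjusted p = 0.851), and 1.17 without chow replicate 2. High-fat minus HDAC6 knockout was -1.11 (95% interval -2.06 to -0.16, adjusted p = 0.662), and high-fat minus chow was -0.27 (95% interval -1.22 to 0.68, adjusted p = 0.906, limma). Without chow replicate 2, high-fat minus chow was 0.06. Even a change of 2-fold between high-fat and chow livers, a log2 difference of 1, lies inside that last interval on the lower side.

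Probe set 1415964_at of Scd1 had a mean level above that of 99.8% of all probe sets and ran from 12.86 to 13.69, close to the highest value of 14.25 in the table. Its order of group means was that of 1415965_at, with HDAC6 knockout first, then HDAC9 knockout, chow and high-fat. Its differences were smaller, such as 0.23 for HDAC6 knockout minus chow and -0.32 for high-fat minus HDAC6 knockout (adjusted p = 0.844). The Scd2 probe set of highest mean, 1415822_at, lay within the range of genes that liver does not express, with 4.77, 5.29 and 5.13 in high-fat livers, 5.30, 5.83 and 5.83 in HDAC9 knockout livers, 5.70, 5.86 and 5.62 in HDAC6 knockout livers and 5.28, 5.70 and 5.26 in chow livers. High-fat lay below both knockouts without overlap, by -0.59 against HDAC9 (95% interval -0.97 to -0.21, adjusted p = 0.329) and -0.67 against HDAC6 (95% interval -1.05 to -0.29, adjusted p = 0.295, limma). Against chow the difference was -0.35 (95% interval -0.73 to 0.03) and the arrays overlapped. The other Scd2 probe sets ran from 3.12 to 3.81 and from 2.82 to 3.14, near the background median.

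Elovl6, which lengthens palmitate to stearate and supplies Scd1, varied more within groups than between them. On 1417404_at it read 9.01, 10.03 and 9.82 in high-fat livers, 8.83, 10.61 and 10.51 in HDAC9 knockout livers, 9.58, 10.59 and 9.97 in HDAC6 knockout livers and 9.56, 11.06 and 9.27 in chow livers. All 4 groups overlapped. High-fat minus chow was -0.35 (95% interval -1.40 to 0.71) on this probe set and -0.25 (95% interval -1.22 to 0.73) on 1417403_at, and without chow replicate 2 these were 0.20 and 0.10. The pooled within-group SDs of 0.78 and 0.73 were larger than those of 99.6% and 99.5% of all probe sets, and that of Scd1 1415965_at was 0.71.

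The spread of Scd1 and Elovl6 followed the same arrays. The array of a group with the lowest Scd1 1415965_at, which was replicate 1 in all 4 groups, was also lowest for both Elovl6 probe sets in 3 of the 4, with chow as the exception. Of 10 measured genes of palmitate synthesis, 7 shared the lowest array with Scd1 in at least 3 groups, as 10.8% of all probe sets did. Fatty acid synthase, Fasn, read 10.42, 11.68 and 11.44 in high-fat livers, 10.71, 11.84 and 12.19 in HDAC9 knockout livers, 11.41, 11.67 and 11.60 in HDAC6 knockout livers and 10.98, 11.56 and 10.67 in chow livers. ATP citrate lyase, Acly, read 10.77, 11.51 and 11.42 in high-fat livers, 10.77, 11.61 and 12.16 in HDAC9 knockout livers, 11.43, 11.73 and 11.59 in HDAC6 knockout livers and 11.19, 11.72 and 10.79 in chow livers. High-fat replicate 1 and HDAC9 knockout replicate 1 were low for all of these genes, and chow replicate 2 was high. The Fads2 probe sets shared the lowest array with Scd1 in 2 groups each. The labels give neither feeding state nor time of collection.

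**Figure D3:**
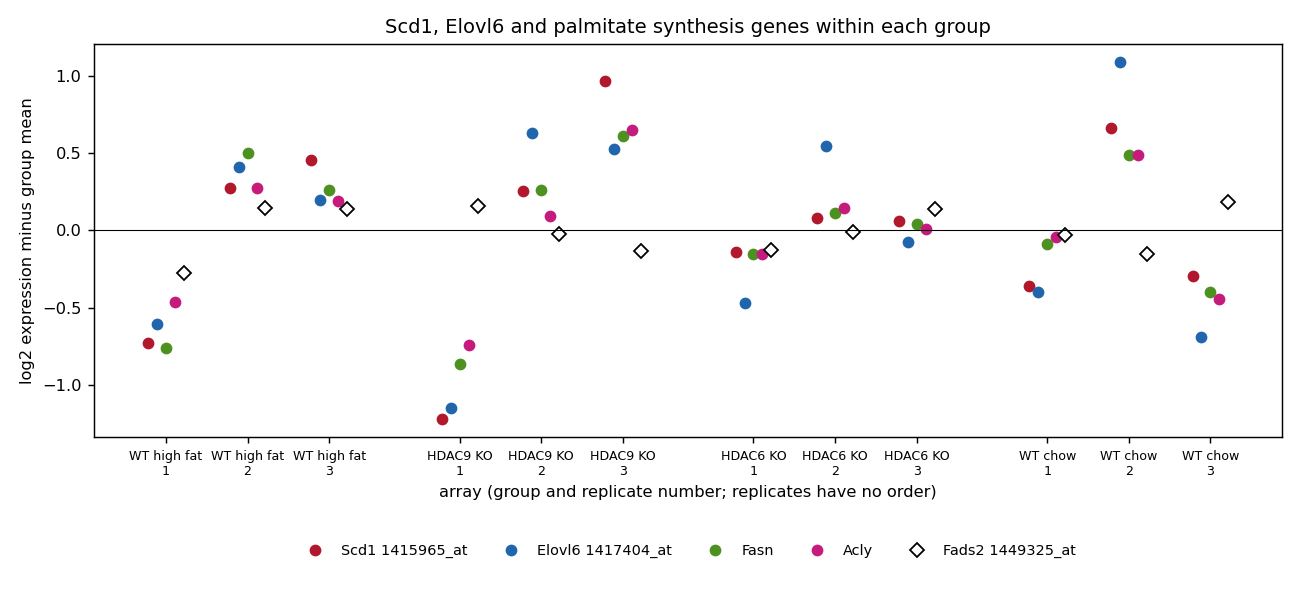
Log2 expression minus the group mean (y axis) of Scd1, Elovl6, Fasn, Acly and Fads2 on each array (x axis, arrays grouped by condition). Scd1, Elovl6, Fasn and Acly lie together below the group mean on high-fat replicate 1 and HDAC9 knockout replicate 1 and above it on chow replicate 2, while Fads2 1449325_at (open diamonds) lies within 0.28 of its group mean on every array. The other Fads2 probe set, not drawn, was -0.81 from the chow mean on chow replicate 2.

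Elovl3, Elovl1 and Fads3 stand outside these routes. Elovl3 makes saturated and monounsaturated very long-chain acids and is known in mouse liver for a daily rhythm and for higher levels in males. It read 7.05, 6.52 and 6.46 in high-fat livers, 7.57, 5.17 and 5.52 in HDAC9 knockout livers, 7.49, 7.12 and 5.66 in HDAC6 knockout livers and 7.91, 6.12 and 7.06 in chow livers. All groups overlapped, and its pooled within-group SD of 0.94 exceeded that of 99.8% of all probe sets. HDAC9 knockout minus chow was -0.94 with a 95% interval of -2.20 to 0.31 (adjusted p = 0.886, limma). It was -1.40 without chow replicate 2 and -0.49 without HDAC9 knockout replicate 2. The mean of 14 genes known for higher expression in male liver, Elovl3 among them, was 8.24, 8.36 and 8.36 in high-fat livers, 7.77, 7.96 and 7.95 in HDAC9 knockout livers, 8.33, 8.19 and 7.65 in HDAC6 knockout livers and 9.10, 8.55 and 8.27 in chow livers. In chow and in HDAC6 knockout livers, both Elovl3 and this mean were highest on replicate 1. In high-fat and in HDAC9 knockout livers, Elovl3 was highest on replicate 1 and the mean was lowest there. Of 12 probe sets of genes known for higher expression in female liver, 3 passed in high-fat livers, lower than in each other group, and 0 passed between the others. All 3 are annotated to Cyp2b10, a xenobiotic-metabolising cytochrome P450 named after its values were seen, and stood at -3.84, -3.68 and -2.83 in high-fat minus chow. The 12 as a set did not share this direction against chow, with 7 higher and 5 lower means in high-fat livers (median 0.24). Against each knockout, 4 had higher and 8 lower means (median -0.10 for HDAC9 and -0.16 for HDAC6). The part of these sex-biased genes in the Elovl3 values was not tested.

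Elovl1 makes the very long saturated chains of sphingolipids. Its 3 probe sets ranked the chow arrays differently. Probe set 1425676_a_at read 8.16, 8.56 and 8.57 in high-fat livers, against 8.80, 7.75 and 8.38 in chow livers. Probe set 1455994_x_at read 8.41, 8.89 and 8.81 in high-fat livers, against 9.23, 9.16 and 8.71 in chow livers. Chow replicate 2 was the lowest chow array on the first and not on the second, nor on 1456530_x_at. In the knockouts the 3 probe sets ran from 8.17 to 8.59, 8.53 to 9.13 and 8.51 to 9.13 in HDAC9, and from 8.33 to 8.50, 8.65 to 8.85 and 8.75 to 8.86 in HDAC6, inside or overlapping the chow range. High-fat minus chow was 0.12 on 1425676_a_at, or -0.16 without chow replicate 2, and -0.33 and -0.31 on the others (95% intervals -0.33 to 0.57, -0.70 to 0.04 and -0.67 to 0.06). No direction can be given for Elovl1 from these values. Fads3, which acts on the sphingoid base of ceramides, read 4.93, 5.09 and 5.14 in high-fat livers, 5.29, 5.36 and 5.86 in HDAC9 knockout livers, 5.55, 5.57 and 5.08 in HDAC6 knockout livers and 5.26, 5.36 and 5.38 in chow livers, all on 1418773_at. High-fat lay below HDAC9 knockout (-0.45, adjusted p = 0.50) and chow (-0.28, 95% interval -0.63 to 0.07, adjusted p = 0.705) without overlap, and neither difference passed in limma. The other Fads3 probe set ran from 2.77 to 3.30, near background.

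Counted over the 19 member probe sets, 1 passed the threshold for high-fat against chow, where 0.19% of all probe sets did, and 1 for high-fat against HDAC9 knockout, where 0.23% did. Across all 4 groups at once (moderated F test in limma) 1 passed, again Fads2 1449325_at (adjusted p = 0.0180), where 0.239% of all probe sets did. None passed for high-fat against HDAC6 knockout (background 0.128%), HDAC9 knockout against chow (0.00884%), HDAC6 knockout against chow (0.00442%) or HDAC9 against HDAC6 knockout (0.00442%). At an unadjusted p under 0.05 in limma, these 4 comparisons gave 6, 1, 3 and 0 of the 19, where 6.46%, 5.76%, 5.96% and 3.70% of all probe sets had such a p. High-fat against chow and against HDAC9 knockout gave 6 each, where 8.16% and 7.01% did, so that the single HDAC9 member is near the background share. Between the knockouts, the smallest p was that of Elovl2, which was 0.22 higher in HDAC9 (95% interval -0.02 to 0.46). With 3 arrays against 3, an exact permutation test cannot go below 0.1, so single values were not tested apart from the model.

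The groups did not overlap for 6 members in high-fat against chow, 5 higher and 1 lower, where 14.5% of all probe sets did not. The corresponding counts were 5 for high-fat against HDAC9 knockout (13.3% of all probe sets), 6 for high-fat against HDAC6 knockout (12.4%), 1 for HDAC9 knockout against chow (11.9%), 5 for HDAC6 knockout against chow (9.86%) and 0 between the knockouts (8.57%). In high-fat against HDAC6 knockout, 3 were higher (both Fads2 probe sets and Elovl2) and 3 lower (both Scd1 probe sets and Scd2). In HDAC6 knockout against chow, 4 were higher (Scd1 1415965_at, Fads1 and both Elovl5 probe sets) and Elovl2 was lower. The median difference of the members was -0.08 for high-fat minus chow, against -0.01 over all probe sets, and 0.10 for each knockout minus chow, against -0.01. The 3 comparisons with chow share its arrays.

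**Figure D4:**
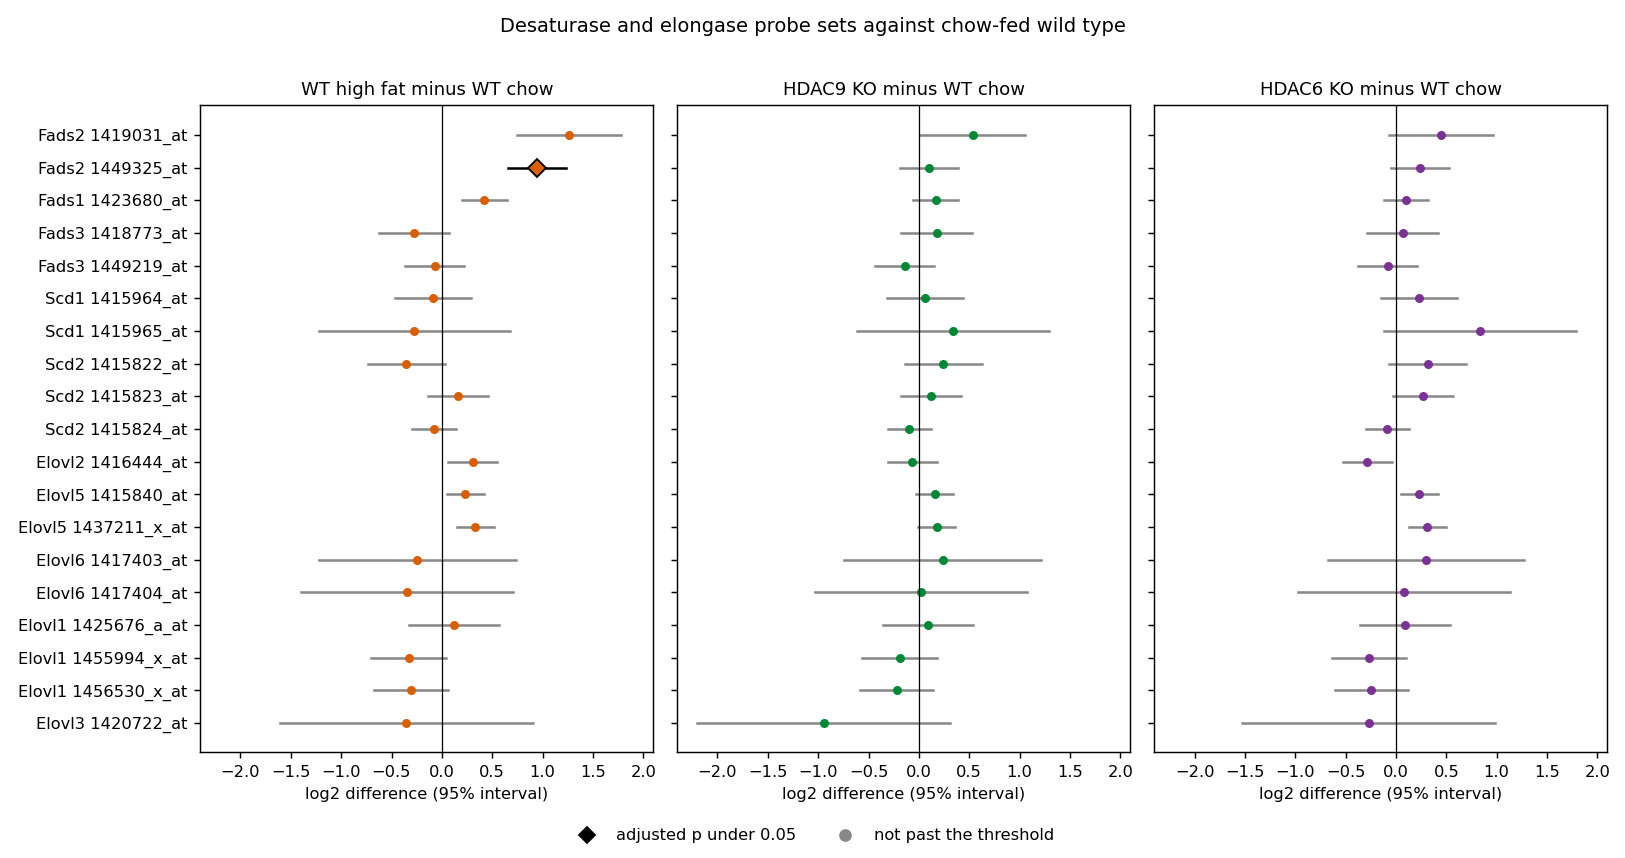
Log2 difference from chow (x axis, point, with its 95% interval as a line) of the 19 member probe sets (rows) in high-fat, HDAC9 knockout and HDAC6 knockout livers. The diamond marks Fads2 1449325_at at 0.94 in high-fat livers, the member past the threshold, and the widest intervals belong to Elovl3, Elovl6 and Scd1 1415965_at.

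Genes that work beside these enzymes were read in 10 lists of 117 genes, of which 92 were measured on 159 probe sets outside the members. In limma, 0 of these probe sets passed in any of the 6 comparisons or across the 4 groups, and the smallest adjusted p across groups was 0.202. At an unadjusted p under 0.05 there were 12 for high-fat against chow, 11 for high-fat against HDAC9 knockout, 18 for high-fat against HDAC6 knockout, 4 for HDAC9 knockout against chow, 12 for HDAC6 knockout against chow and 5 between the knockouts. The shares of all probe sets were those given for the members, and 12 of 159 for high-fat against chow or 11 of 159 against HDAC9 knockout lie near them.

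Of the 21 probe sets of palmitate synthesis, 11 had higher and 10 lower means in high-fat than in chow livers (median 0.00). Both knockouts leaned above chow, with 19 higher and 2 lower in HDAC6 (median 0.18) and 17 higher and 4 lower in HDAC9 (median 0.09). These comparisons share the chow arrays, and several probe sets can read the same gene. The genes of smallest p in this list were Acly, on a probe set near background, and malic enzyme, Me1, which supplies NADPH. Me1 was -0.62 in high-fat minus chow (adjusted p = 0.580, limma), in part through chow replicate 2, which read 11.30 against 10.63 and 10.43. Its other probe set stood at -0.44 and read 9.80, 10.47 and 10.28 in high-fat and 10.17, 11.52 and 10.18 in chow livers. That difference rested on chow replicate 2. Of the partners that complete the elongation cycle, 6 of 10 probe sets had higher means in high-fat than in chow livers. The enoyl reductase Tecr stood at 0.16 and the dehydratase Hacd2 at -0.19 (adjusted p = 0.815 and 0.536, limma). On this probe set Tecr read 10.66, 11.07 and 11.14 in high-fat livers and 11.01, 10.49 and 10.91 in chow livers. Its difference rested on chow replicate 2, and its other probe set stood at -0.03. Of the cytochrome b5 system that feeds electrons to desaturases, 7 of 10 probe sets had higher means. Its reductase Cyb5r3 read 8.18, 8.94 and 8.95 in high-fat livers, against 8.51, 5.27 and 8.60 in chow livers. The size of this difference, 1.23 (adjusted p = 0.644, limma), therefore rested on chow replicate 2. The other Cyb5r3 probe sets stood at 0.27, 0.17 and 0.15, and Cyb5r4 stood at -0.05. Among other family members, 4 of 10 probe sets were higher, with Elovl7, a further elongase, at -0.22 and Degs2, a desaturase of sphingolipids, at 0.14. Both probe sets lay within the range of genes that liver does not express. Degs2 read 4.10, 4.09 and 4.11 in high-fat livers and 4.10, 3.68 and 4.11 in chow livers, so its difference rested on chow replicate 2.

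Of the acyl-coenzyme A synthetase and thioesterase probe sets, 5 of 14 had higher means in high-fat than in chow livers, with the synthetase Acsl5 at -0.12. Against HDAC6 knockout, Acsl5 was -0.43 in high-fat livers (adjusted p = 0.580, limma). The synthetase Acsl4 stood at -0.64 (adjusted p = 0.572, limma) on a probe set within the range of genes that liver does not express. Its brighter probe sets stood at -0.23 and -0.10. Among acyltransferases that use the finished chains the count was 7 of 13. Lpcat3, which places polyunsaturated chains in phospholipids, stood at -0.09, and at -0.43 in high-fat minus HDAC6 knockout (adjusted p = 0.562, limma). The glycerol-phosphate acyltransferase Gpam stood at 0.23 on a probe set within the range of genes that liver does not express, lowest on chow replicate 2. Its brighter probe set stood at 0.09. Peroxisomal chain shortening, which completes docosahexaenoic acid, had 10 of 13, with the transporter Abcd2 at 0.47 (adjusted p = 0.655) and the thiolase Acaa1b at -0.10. Among regulators the count was 26 of 45. The protease Mbtps1, which activates the sterol regulatory proteins, stood at -0.11 on a probe set near background, and the receptor Pparg at -0.09. Both differed more between other groups, without passing. Mbtps1 was -0.51 in high-fat minus HDAC6 knockout (adjusted p = 0.195, limma). Pparg read 5.95, 6.08 and 5.77 in HDAC9 knockout livers and 6.72, 6.63 and 6.44 in HDAC6 knockout livers, a difference of -0.66 without overlap.

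Targets of the sterol regulatory proteins outside the route had 8 of 11 probe sets higher in high-fat than in chow livers, with Mid1ip1, a partner of acetyl-coenzyme A carboxylase, at 0.44 (adjusted p = 0.642). Targets of PPARalpha, the receptor that drives fatty acid oxidation, had 9 of 14. Their genes of smallest p had lower means: Pdk4, the kinase that shuts pyruvate dehydrogenase, read 6.22, 6.52 and 5.79 in high-fat livers, 8.29, 6.54 and 7.66 in HDAC9 knockout livers, 8.81, 8.19 and 7.49 in HDAC6 knockout livers and 7.54, 6.89 and 7.65 in chow livers. High-fat lay below all other arrays. Pdk4 was -1.99 in high-fat minus HDAC6 knockout (adjusted p = 0.0766) and -1.18 minus chow (adjusted p = 0.403), and the omega-hydroxylase Cyp4a14 was -1.21 minus HDAC9 knockout (adjusted p = 0.0932) and -0.97 minus chow (adjusted p = 0.257, limma for each). None of these passed.

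For the 3 members whose highest-mean probe set had an SD of 0.5 or more over the 12 arrays, the genes with the nearest pattern were sought among 12383 others, by the root mean square difference of centred log2 values. Nearest to Fads2 1419031_at were Got1, the cytosolic aspartate aminotransferase (0.26), and the mitochondrial carrier Slc25a25 (0.28). Slc25a25 read 9.67, 9.61 and 9.16 in high-fat livers, 9.0, 8.52 and 8.67 in HDAC9 knockout livers, 8.82, 8.50 and 8.28 in HDAC6 knockout livers and 8.24, 6.81 and 8.28 in chow livers, so that it shares with this probe set high values in high-fat livers and a low value on chow replicate 2. Nearest to Elovl6 were Me1 (0.35) and pyruvate kinase, Pklr (0.36). Nearest to Elovl3, whose own SD was 0.88, were the natriuretic peptide receptor Npr2 (0.53) and Trp53inp2 (0.54), which left more than 0.5 of difference per array. The 12 points share group differences and arrays, so these are descriptions.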

How the data were processed

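Expression was measured on 12 arrays, 1 per sample. The deposited values are log2 expression per probe set, made by RMA per the submitters' processing notes. Which software and chip definition made them is not given in the sources used here. Values were analysed as they stood, and no array or probe set was left out; 0 per-sample columns were unused. A public platform annotation gave 20380 probe sets 1 symbol, 691 several and 1555 none, and symbols were checked against RefSeq, which changed 0 of them.

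Groups were compared with limma 3.58.1 in R 4.3.3, with 4 group means over all 12 arrays, a mean-variance trend and 13.97 moderated degrees of freedom. Tests were two-sided, p-values were adjusted with Benjamini-Hochberg over all 22626 probe sets of a comparison, and values under 0.05 after adjustment passed. The fit was tested on simulated data. Named are the members, Hdac6 and Hdac9, in each pathway list the genes past the threshold or, with none, the 2 of smallest F p, and the 2 genes nearest in pattern to each member with an SD of 0.5 or more. Fasn, the brighter Acly probe set, Adipoq and albumin were named after their values were seen. Members, lists, tests and alternatives were chosen with earlier results of these data known.

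Alternatives changed the variance prior, the arrays fitted, the normalization, the filter on low values, the probe sets per gene, the threshold, a replicate block and the clock covariate, or left out arrays. The number of arrays limits the precision. Tables and figures used Python 3.11.15, pandas 2.3.3 and matplotlib 3.10.9.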

Additional observations from a re-analysis of the deposited data

How the results depend on the processing

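The 7 counts of members past the threshold and the leading difference of each comparison were recomputed under 26 alternatives, of which the joint removal of HDAC9 knockout replicate 2 and chow replicate 2 was chosen after seeing the data. The F test has no fit of 2 groups, and Elovl5 1437211_x_at has no value without probe sets that share probes. List counts, counts of groups that did not overlap and nearest genes were not recomputed. No difference past the threshold changed sign. Of the 114 member differences (19 probe sets in 6 comparisons), 45 changed sign in at least 1 removal of a single array, none of them past the threshold or with an unadjusted p under 0.282. In high-fat minus chow these were both probe sets of Scd1 and of Elovl6, Fads3 1449219_at, Elovl1 1425676_a_at and Elovl3. The count of 0 members for each knockout against chow, and between the knockouts, stayed 0 in all 26. For high-fat against chow the count of 1 became 0 when only these groups were fitted or with the clock score as a covariate, and 2 with median centring, without probe sets marked as sharing probes or with both arrays removed. For high-fat against HDAC9 knockout the count of 1 became 0 when only these groups were fitted, with 1 probe set per gene, with the mean of a gene's probe sets, at an adjusted p under 0.01 or with the clock score, and 2 with both arrays removed. For high-fat against HDAC6 knockout the count of 0 became 2 with a robust prior, with only these groups fitted or with both arrays removed. The F test's count of 1 became 0 with 1 probe set per gene, with the mean of a gene's probe sets, at 0.01 or with the clock score, and 3 with both arrays removed. Over all probe sets, high-fat against chow gave 43 calls, 18 with only these groups fitted, 11 with the clock score and 14 to 54 with 1 array left out. Leaving out 1 array at a time gave 0 to 2 members for each of these 4 results. Over the 24 alternatives that read Fads2 1449325_at itself, high-fat minus chow ran from 0.87 to 1.08 (adjusted p 0.00507 to 0.112), minus HDAC9 knockout from 0.76 to 0.98 (0.00936 to 0.253) and minus HDAC6 knockout from 0.63 to 0.84 (0.0248 to 0.314). With 1 probe set per gene, which takes 1419031_at, the chow difference was 1.26 (adjusted p = 0.0465), and with the mean of both it was 1.10 (adjusted p = 0.0175). Same-numbered samples of different groups correlated at -0.15 to 0.14 in their deviations from the group means, so pairing by number did not show over all probe sets. Pairing in a part of the genes was not tested, and replicate 1 was lowest for Scd1 1415965_at in all 4 groups. With the replicate block the count for high-fat against chow was 2, the second being Fads2 1419031_at, and the other counts kept their values. Low signal limits the Scd2 and Fads3 probe sets, whose means lay within the range of genes that liver does not express. The Elovl3 mean of 6.64 also lay within that range, near its top of 6.93, though above every array median.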
